A study of Mus musculus with 3 samples.

Results

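The genes described here are Tnf, its receptors Tnfrsf1a and Tnfrsf1b, the inhibitors Tnfaip3, Nfkbia, Nfkbiz and Tnip3, and the NF-kB subunits Nfkb1, Nfkb2 and Relb. They were taken by symbol, which matched 10 of the 32285 genes in the deposited matrices, each with 1 entry. Their transcripts were measured with 10x Genomics 3′ single-cell RNA sequencing of dorsal skin enriched for CD45+ immune cells with magnetic beads. WT_Ctrl came from wild-type mice without irradiation, WT_UV from wild-type mice exposed to ultraviolet B (UVB) 3 times, and RP_UV from RP mice given the same 3 exposures. All animals were males aged 8 weeks on a C57Bl/6 background, with skin in telogen, the resting phase of the hair cycle. RP mice carry Rosa26-rtTA and Tre-Ptgs2, which express rat Ptgs2 (Cox-2, an enzyme of prostaglandin synthesis) throughout the body under doxycycline, so the transgene is not limited to a cell type. Reads were aligned to the mouse genome, and those of the rat transgene count only as far as they align there. There was no unirradiated RP library. Each group was 1 library, taken by the study's legends from 1 mouse, and no difference below has a replicate check. Intervals are 95% intervals of counting error only.

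Tnf is a secreted cytokine that acts through Tnfrsf1a, present on most cells, and Tnfrsf1b, found mainly on immune cells. Receptor signalling activates the IkB kinases, which lead to the destruction of Nfkbia (IkBα) and free NF-kB dimers to enter the nucleus. NF-kB then induces its own brakes: Nfkbia retains the dimers in the cytoplasm, Tnfaip3 (A20) edits ubiquitin chains on the signalling complex, and Tnip3 is a binding partner of Tnfaip3. Nfkbiz is a nuclear IkB protein that acts at a subset of inflammatory promoters, and Nfkb1 (p105/p50), Nfkb2 (p100/p52) and Relb are subunits of the dimers. In skin, keratinocytes, macrophages, dendritic cells and mast cells are all known to use this pathway.

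NF-kB acts on its feedback genes through their promoters and other regulatory sequence. The kB consensus, the sequence that NF-kB dimers bind and that is given by name alone because it holds ambiguous letters, was searched on both strands in the 250 bases before and 50 bases after each RefSeq transcription start (GRCm38.p6), with overlapping matches counted as 1 site. The table held 10 windows for 7 of the 10 genes, some with several starts, and 6 of these 10 windows had a match, beside 4.51% of all 32851 windows of this length. The matches belonged to 4 genes, Tnfaip3, Nfkbia, Nfkb2 and Tnip3. All windows of Nfkb2 had a match, but its windows 2 and 3 overlapped and shared 1 site, so the matched windows are not all separate. Nfkbiz, Nfkb1 and Relb had no entry in the table. The 150 bases before the start of each gene with a match are shown because the differences described below include those of the inhibitors Tnfaip3, Nfkbia and Tnip3 and of the subunit Nfkb2. Capitals mark the matched bases, and each sequence reads 5′ to 3′ on the strand of the gene. The windows lie at chr10:19015411-19015560 on the minus strand for Tnfaip3, at chr12:55492648-55492797 on the minus strand for Nfkbia, at chr19:46304587-46304736 on the plus strand for Nfkb2, and at chr6:65590248-65590397 on the plus strand for Tnip3.
Tnfaip3: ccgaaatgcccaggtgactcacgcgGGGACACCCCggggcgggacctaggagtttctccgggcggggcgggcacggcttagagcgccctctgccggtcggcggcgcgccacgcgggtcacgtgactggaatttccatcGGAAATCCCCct
Nfkbia: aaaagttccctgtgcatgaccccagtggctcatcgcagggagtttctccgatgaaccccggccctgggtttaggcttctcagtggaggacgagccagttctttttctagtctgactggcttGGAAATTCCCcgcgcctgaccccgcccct
Nfkb2: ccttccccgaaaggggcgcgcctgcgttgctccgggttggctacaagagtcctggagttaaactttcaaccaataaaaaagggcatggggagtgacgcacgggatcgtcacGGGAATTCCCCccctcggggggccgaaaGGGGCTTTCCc
Tnip3: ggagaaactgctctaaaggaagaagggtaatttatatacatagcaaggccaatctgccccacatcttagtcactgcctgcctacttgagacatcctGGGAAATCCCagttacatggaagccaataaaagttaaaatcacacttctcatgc
The site of Nfkbia began 29 bases before the start and that of Tnip3 54 bases before it. Tnfaip3 held a site at 125 and another at 12 bases, and Nfkb2 at 39 and 11 bases before the start shown, with further matches at its other starts. A match describes these letters and was not tested as a binding site, and the windows of Tnf, Tnfrsf1a and Tnfrsf1b held none of them.

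The libraries held 34985549 to 82722013 UMIs (unique molecular identifiers, 1 for each captured transcript). After filtering, 5225 to 6070 cells were left in a library, with a median of 3774 UMIs per cell in RP_UV, 4246 in WT_Ctrl and 10557 in WT_UV. By the labels, WT_UV was on a flow cell of its own and the other libraries shared another, so run and group cannot be told apart in comparisons with WT_UV. Only RP_UV against WT_Ctrl is within a run, and there genotype and UVB change together. Pairs of libraries shared 8 to 11 barcodes, at most 0.179% of the smaller library. Cells were assigned to classes from marker genes, so that macrophages below are macrophage- or monocyte-like cells, and likewise for the other classes. In macrophages, the 12 markers of the class summed to 28722, 22644 and 30797 CPM in WT_Ctrl, WT_UV and RP_UV, with none at 0. Levels are in CPM, the UMIs of a gene divided by all UMIs of the same cells on the usual scale, so that 149 UMIs among 7247625 are 20.6 CPM. Transcripts of Ptgs2 in all kept cells were at 14.4 CPM in WT_Ctrl, 117 in WT_UV and 486 in RP_UV, and in keratinocytes at 5.80, 5.45 and 585 CPM, highest in the library labelled as carrying the transgene.

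Tnf, the ligand, was most abundant in neutrophils, Langerhans cells and mast cells, lower in macrophages, and within a few CPM of 0 in keratinocytes. In macrophages, the largest class with 1876, 2241 and 2127 cells in WT_Ctrl, WT_UV and RP_UV, the WT_Ctrl library held Tnf at 20.6 CPM (17.4 to 24.1), the WT_UV library at 80.3 CPM (77.0 to 83.7) and the RP_UV library at 59.6 CPM (55.2 to 64.3). The 3 intervals did not overlap, with WT_Ctrl lowest and WT_UV highest. WT_UV was 3.91-fold above WT_Ctrl (3.31 to 4.64), RP_UV was 2.90-fold above WT_Ctrl (2.42 to 3.48), and RP_UV was at 0.742 of WT_UV (0.679 to 0.809). As a log2 difference, RP_UV over WT_UV was -0.42, and from -0.79 to -0.10 under the alternatives. Dendritic cells differed less, with Tnf at 83.9 CPM in WT_Ctrl, 90.5 in WT_UV and 75.5 in RP_UV, and their intervals overlapped. T cells had 168, 188 and 96.4 CPM in the same order, the last from 52 cells and 9 UMIs.

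Neutrophils carried Tnf at 441 CPM in WT_UV (354 to 542, 59 cells) and 849 in RP_UV (791 to 910, 566 cells). WT_Ctrl held only 15 neutrophils with 1 UMI of Tnf, so no level could be set for unirradiated neutrophils. Langerhans cells, the resident antigen-presenting cells of the epidermis, ran the other way: the 78 cells of WT_Ctrl held Tnf at 484 CPM (420 to 555), the 98 of WT_UV at 187 CPM (167 to 209) and the 36 of RP_UV at 271 CPM (204 to 352). Here the unirradiated library was the highest, and its interval overlapped neither of the others. A Langerhans cluster led by H2-M2, Cd207 and H2-M5 held 36, 14 and 0 cells of WT_Ctrl, WT_UV and RP_UV. Folds within Langerhans clusters were not drawn. Mast cells, which store Tnf, were at 399, 367 and 398 CPM from 29 to 93 cells, a spread within their intervals. Keratinocytes stayed between 2.68 and 4.27 CPM, and fibroblasts of WT_Ctrl and RP_UV at 2.95 and 5.41 CPM.

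Because 1 class can be abundant in a library and rare in another, the share of all Tnf transcripts held by each class also moved. Macrophages held 13.2% of the Tnf UMIs of WT_Ctrl, 37.7% of WT_UV and 31.4% of RP_UV. Neutrophils held 0.0887%, 1.54% and 37.6%, and Langerhans cells 18.1%, 5.48% and 2.57%. Among the named classes, neutrophils were thus the largest holder of Tnf transcripts in RP_UV and macrophages in WT_UV, while dendritic cells, with 29.4%, were the largest in WT_Ctrl. Bead enrichment and the yield of each class enter these shares.

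**Figure D1:**
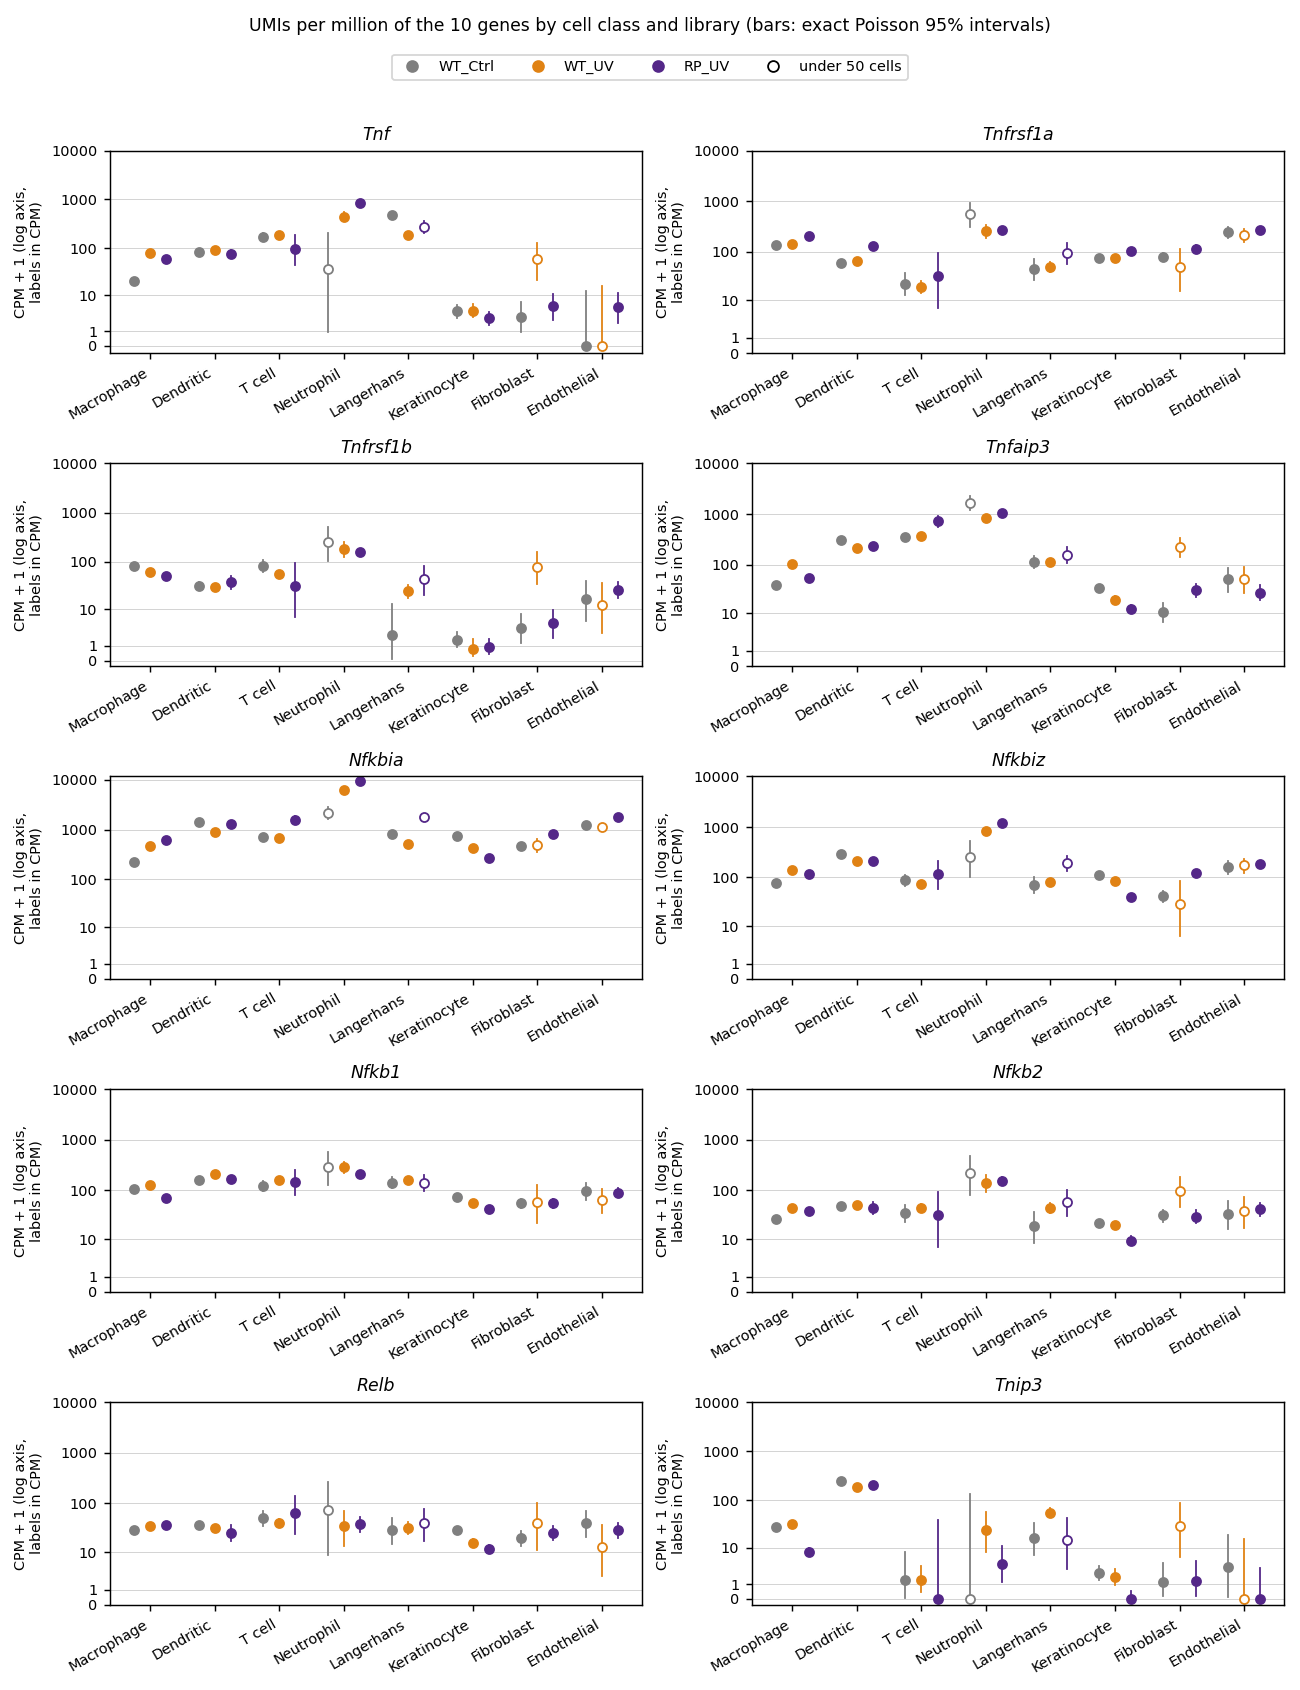
Level of each of the 10 genes (CPM, log axis after adding 1) in 8 cell classes, with 1 point per library (grey WT_Ctrl, orange WT_UV, purple RP_UV), exact Poisson 95% intervals as bars, and open points for classes of under 50 cells in that library. Tnf is at or below 5.41 CPM in keratinocytes and in fibroblasts of WT_Ctrl and RP_UV, and reaches 849 CPM in neutrophils of RP_UV. The open WT_UV fibroblast point rests on 34 cells.

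The receptors did not follow the ligand. Tnfrsf1a in macrophages was at 134 CPM in WT_Ctrl, 142 in WT_UV and 204 in RP_UV, with the RP_UV library above both others: 1.44-fold above WT_UV (1.36 to 1.51) and 1.53-fold above WT_Ctrl (1.41 to 1.65). WT_UV and WT_Ctrl could not be told apart at this depth (1.06-fold, 0.989 to 1.14). The same order was found in dendritic cells, at 60.0, 64.5 and 128 CPM, where RP_UV was 2.13-fold above WT_Ctrl (1.73 to 2.62). It was also found in keratinocytes, at 75.1, 76.2 and 101 CPM, with RP_UV 1.34-fold above WT_Ctrl (1.21 to 1.49). Fibroblasts had 79.1 CPM in WT_Ctrl and 114 in RP_UV, a fold of 1.44 (1.14 to 1.83). T cells held little of this receptor, at 19.3 to 32.1 CPM.

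Tnfrsf1b, the receptor of immune cells, was lower in macrophages of both UVB libraries, at 62.3 CPM in WT_UV and 50.5 in RP_UV beside 82.5 in WT_Ctrl. WT_UV was at 0.755 of WT_Ctrl (0.687 to 0.830) and RP_UV at 0.613 of it (0.545 to 0.688). Dendritic cells were at 32.4, 30.3 and 38.2 CPM with overlapping intervals, and keratinocytes at 0.737 to 1.61 CPM. T cells were at 83.1 CPM in WT_Ctrl, 56.7 in WT_UV and 32.1 in RP_UV, the last from 3 UMIs.

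Among the inhibitors, Nfkbia, Tnfaip3 and Nfkbiz were higher in macrophages of both UVB libraries than in WT_Ctrl. Nfkbia in macrophages was at 223 CPM in WT_Ctrl, 463 in WT_UV and 611 in RP_UV, each apart from the next: WT_UV was 2.08-fold above WT_Ctrl (1.97 to 2.19), RP_UV 1.32-fold above WT_UV (1.28 to 1.36) and 2.74-fold above WT_Ctrl (2.60 to 2.89). Tnfaip3 peaked in WT_UV, at 38.1, 103 and 53.0 CPM. It was 2.71-fold above WT_Ctrl in WT_UV (2.40 to 3.08), and RP_UV was at 0.513 of WT_UV (0.469 to 0.561) and 1.39-fold above WT_Ctrl (1.21 to 1.61). Nfkbiz was at 77.7, 139 and 117 CPM, 1.79-fold above WT_Ctrl in WT_UV (1.64 to 1.96) and 1.51-fold in RP_UV (1.36 to 1.66). Part of the order between the UVB libraries rested on a few clusters. The 3 named clusters split from the integrated cluster that holds the Il1b-led cells had 96, 378 and 54 macrophages of WT_Ctrl, WT_UV and RP_UV. Without them, the log2 difference of Tnfaip3 in RP_UV over WT_UV went from -0.95 to -0.14. That of Nfkbia went from 0.40 to 1.0 and that of Nfkbiz from -0.25 to 0.26. Another cluster of that split, led by Chil3, S100a9 and Cxcl2 with Il1b among its leading genes, stayed unnamed. Its 0, 9 and 136 cells of WT_Ctrl, WT_UV and RP_UV enter no macrophage level.

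Tnip3 differed between the irradiated libraries in macrophages taken as 1 class. It was at 27.7 CPM in macrophages of WT_Ctrl (201 UMIs), 32.5 in WT_UV (891 UMIs) and 8.14 in RP_UV (92 UMIs). RP_UV was at 0.251 of WT_UV (0.200 to 0.311), a 3.99-fold difference, and at 0.294 of WT_Ctrl (0.227 to 0.378). As a log2 difference with a pseudocount of 1 CPM, RP_UV against WT_Ctrl was -1.65, but -0.98 as a mean over cells and -0.84 with each cell thinned to 2000 UMIs, which is short of 2-fold. RP_UV over WT_UV was -1.87, and from -2.15 to -1.22 under the alternatives. The Il1b-led cluster, with 268 macrophages of WT_UV and 24 of RP_UV, held 42.6% of the WT_UV UMIs of Tnip3. The unnamed cluster led by Chil3, S100a9 and Cxcl2, with 136 cells of RP_UV and 9 of WT_UV, was not counted here. Only the cluster led by Ccl8, Pf4 and C1qc had at least 50 cells in both irradiated libraries. Tnip3 was not lower in RP_UV there, with 0 UMIs in WT_UV and 10 in RP_UV. In dendritic cells, where Tnip3 was much more abundant, the levels were 248, 188 and 207 CPM, and RP_UV was not lower than WT_UV (1.10-fold, 0.965 to 1.26). In keratinocytes it was at 2.35 CPM in WT_Ctrl and 1.77 in WT_UV, with 0 UMIs among 8216038 in RP_UV. A floor of 3 counts for that library is 0.365 CPM, which is 6.43-fold below the WT_Ctrl level. Tnip3 did not reach the mean of 5 CPM in keratinocytes, so no size of difference is drawn from these few UMIs.

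Among the subunits, Nfkb1 was at 105 CPM in macrophages of WT_Ctrl, 127 in WT_UV and 70.2 in RP_UV. RP_UV was the lowest, at 0.553 of WT_UV (0.511 to 0.597) and 0.666 of WT_Ctrl (0.602 to 0.736). In the cluster led by Ccl8, Pf4 and C1qc, RP_UV was at 0.936 of WT_UV (0.743 to 1.19), an interval that includes 1. Nfkb2 was at 26.4, 45.0 and 37.8 CPM, with both UVB libraries higher: 1.71-fold in WT_UV (1.47 to 2.0) and 1.43-fold in RP_UV (1.21 to 1.71). Relb, the usual partner of Nfkb2, varied least of the 3, at 28.8, 35.6 and 36.6 CPM, or 1.23-fold (1.06 to 1.44) and 1.27-fold (1.07 to 1.51) above WT_Ctrl.

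Against all genes measured in macrophages, differences of 2-fold or more on log2(CPM + 1) were counted over the genes with a mean of at least 5 CPM over the libraries, which all 10 genes reached. In WT_UV over WT_Ctrl, 3 of 10 were higher (Tnf, Tnfaip3 and Nfkbia), beside 3.09% of all 9138 genes, and 0 of 10 were lower, beside 1.02%. The median log2 difference was 0.52 over the 10 genes and 0.04 over all genes. In RP_UV over WT_UV, 0 of 10 were higher, beside 1.24%, and 1 was lower (Tnip3), beside 3.41%, with medians of -0.27 and -0.04. In RP_UV over WT_Ctrl, 2 were higher (Tnf and Nfkbia), beside 3.96%, and 1 was lower (Tnip3), beside 4.03%, with medians of 0.49 and 0.02. The number of genes is small, and no test of the list was made. The comparisons share libraries and are not independent of each other.

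**Figure D2:**
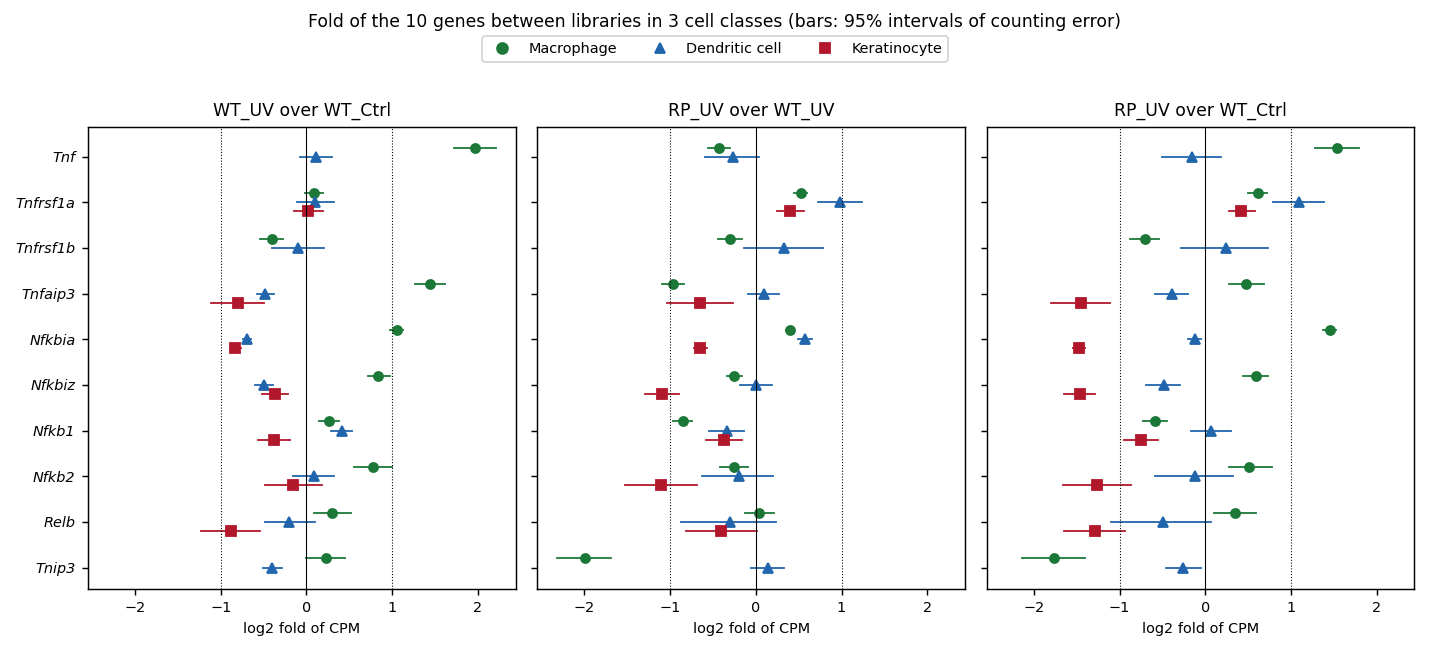
Log2 fold of CPM, without pseudocount, for each gene between libraries (1 panel per comparison) in macrophages (circles), dendritic cells (triangles) and keratinocytes (squares), with 95% intervals of counting error as bars and dotted lines at 2-fold. Nfkbia and Tnfaip3 lie to the right of 0 in macrophages and to the left in keratinocytes in both comparisons with WT_Ctrl. Tnf, Tnfrsf1b and Tnip3 are not drawn for keratinocytes because they did not reach a mean of 5 CPM.

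In keratinocytes Nfkbia, Tnfaip3 and Nfkbiz were lower in both UVB libraries than in WT_Ctrl, whereas in macrophages they were higher. The difference between the classes was not tested. There were 1237, 533 and 1142 keratinocytes in WT_Ctrl, WT_UV and RP_UV, cells that the CD45 beads should not hold: Ptprc, which encodes CD45, was at 14.1, 21.2 and 8.89 CPM in them and at 405, 510 and 325 CPM in macrophages. Nfkbia was at 756 CPM in WT_Ctrl, 425 in WT_UV and 272 in RP_UV. WT_UV was at 0.563 of WT_Ctrl (0.538 to 0.588) and RP_UV at 0.359 of it (0.342 to 0.377), so the unirradiated library was highest and RP_UV lowest, with no overlap of the intervals. Tnfaip3 took the same order, at 33.6, 19.3 and 12.3 CPM, with RP_UV at 0.366 of WT_Ctrl (0.288 to 0.462). Nfkbiz was at 111, 86.3 and 40.3 CPM, and RP_UV was at 0.467 of WT_UV (0.407 to 0.535) and 0.362 of WT_Ctrl (0.318 to 0.411). The subunits were ordered alike: Nfkb1 at 72.4, 55.7 and 43.1 CPM, Nfkb2 at 22.1, 19.9 and 9.25 CPM, and Relb at 28.8, 15.6 and 11.8 CPM. Of the 7 genes that reached the mean level, only Tnfrsf1a was highest in RP_UV.

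Different clusters made up the keratinocytes of each library. Clusters led by Krt15, Krt5 and Krt14 and by Krt15, Clca3a2 and Ly6d held 363 and 270 of the 1237 keratinocytes of WT_Ctrl but 6 and 29 of the 1142 of RP_UV. One led by Krt16, Krt14 and Cstdc5 held 13 and 155. Only 2 clusters had at least 50 cells in both of these libraries, and Nfkbia was lower in RP_UV in each, at 0.359 of WT_Ctrl (0.239 to 0.534) in that led by Krt14, Krt15 and Ccl27a and at 0.260 (0.152 to 0.435) in that led by Krt14, Krt5 and Krt15. Nfkbiz was not lower there, at 1.49-fold (0.539 to 4.74) and 1.64-fold (0.162 to 80.6), from few UMIs. In the Krt16-led cluster, Nfkbia in RP_UV was 1.18-fold above WT_UV (1.02 to 1.35) and Nfkbiz 1.59-fold (1.04 to 2.49), opposite to the class as a whole. The cluster led by Krt10, Krtdap and Krt1 had Nfkbia in RP_UV at 0.327 of WT_UV (0.164 to 0.597). In WT_UV over WT_Ctrl, the cluster led by Krtdap, Krt77 and Krt10 had Nfkbia at 0.901 (0.807 to 1.01), beside 0.563 in the class.

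Of the 10 genes, 7 reached the mean level in keratinocytes. In WT_UV over WT_Ctrl, 0 of 7 were higher or lower by 2-fold, beside 2.17% of 9439 genes higher and 1.46% lower. In RP_UV over WT_UV, 0 were higher, beside 4.18%, and 2 were lower (Nfkbiz and Nfkb2), beside 3.44%. In RP_UV over WT_Ctrl, 0 were higher, beside 6.07%, and 5 were lower (Tnfaip3, Nfkbia, Nfkbiz, Nfkb2 and Relb), beside 7.38%, with a median log2 difference of -1.22 over the 7 genes and -0.06 over all genes. The calls of RP_UV over WT_UV rested on small margins and were 0 in place of 2 under 4 other settings.

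A list of 12 genes induced by tissue dissociation, such as Fos, Jun and Atf3, had a median log2 difference of the same sign as that of Nfkbia against WT_Ctrl in both classes. Its summed level was 3641 CPM in macrophages of WT_Ctrl, 5966 in WT_UV and 6144 in RP_UV, with 1 of 12 genes higher by 2-fold in WT_UV over WT_Ctrl, beside 3.09% of all genes, 2 of 12 in RP_UV over WT_Ctrl, beside 3.96%, and medians of 0.63 and 0.66. In keratinocytes it was at 7977, 5026 and 3023 CPM, with 9 of 12 lower in RP_UV over WT_Ctrl, beside 7.38%, and a median of -1.48. Nfkbia is itself an early response gene, and the part of dissociation in these differences was not tested.

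Dendritic cells (615, 606 and 202 cells) held some of the highest levels of the inhibitors and showed few differences past 2-fold. Their clusters also differed between WT_Ctrl, WT_UV and RP_UV. One led by Mmp12, Cd209a and Ear2 held 22, 287 and 149 cells, and another led by Apod, Cd209e and H2-Aa held 213, 77 and 4. Folds within dendritic clusters were not drawn. Nfkbia was at 1425 CPM in WT_Ctrl, 880 in WT_UV and 1307 in RP_UV, so here WT_UV was the lowest, at 0.618 of WT_Ctrl (0.598 to 0.638). Tnfaip3 was at 304, 218 and 232 CPM and Nfkbiz at 293, 208 and 209 CPM, both highest in WT_Ctrl. Nfkb1 was at 162, 215 and 170 CPM, highest in WT_UV, while Nfkb2 at 48.6, 51.4 and 44.8 CPM and Relb at 36.2, 31.6 and 25.7 CPM had overlapping intervals. In WT_UV over WT_Ctrl, 0 of 10 genes were past 2-fold, beside 3.18% of 8796 genes higher and 1.27% lower. In RP_UV over WT_UV the count was also 0, beside 2.85% and 4.20%. In RP_UV over WT_Ctrl only Tnfrsf1a was higher, beside 6.28%, and 0 were lower, beside 6.15%. With classes taken from marker UMIs in single cells, the differences of Tnf and Nfkbia between RP_UV and WT_Ctrl changed sign, from -0.15 to 0.37 and from -0.12 to 0.13, and neither has a firm direction.

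T cells numbered 296, 473 and 52. Tnfaip3, a strong brake on T-cell receptor signalling, was at 353 CPM in WT_Ctrl, 377 in WT_UV and 718 in RP_UV, 1.91-fold above WT_UV in RP_UV (1.47 to 2.44). Nfkbia was at 717, 667 and 1564 CPM, 2.35-fold above WT_UV (1.97 to 2.78). WT_UV and WT_Ctrl did not differ beyond counting error for either gene, at 1.07-fold (0.927 to 1.23) and 0.930-fold (0.843 to 1.03). Nfkbiz, Nfkb1, Nfkb2 and Relb rested on 3 to 14 UMIs in RP_UV: Nfkbiz was at 88.7, 72.7 and 118 CPM, Nfkb1 at 123, 161 and 150, Nfkb2 at 35.2, 45.1 and 32.1, and Relb at 50.7, 41.1 and 64.3, while Tnip3 had 1, 4 and 0 UMIs. The RP_UV T cells were also the shallowest, with a median of 1682 UMIs against 5191 in WT_UV, and held RNA of other cell types. Their 5 skeletal muscle markers, none at 0, summed to 8249 CPM, beside 1.41 in WT_Ctrl and 1.82 in WT_UV, and the 12 macrophage markers to 1104 CPM, beside 531 and 471, with Adgre1 and Fcgr1 at 0. The part of this RNA in the higher Tnfaip3 and Nfkbia was not tested.

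Fibroblasts numbered 368 in WT_Ctrl and 411 in RP_UV. In RP_UV over WT_Ctrl, Nfkbia was at 470 and 831 CPM (1.77-fold, 1.62 to 1.94), Nfkbiz at 41.9 and 120 CPM (2.85-fold, 2.16 to 3.81) and Tnfaip3 at 10.6 and 30.4 CPM (2.86-fold, 1.62 to 5.25). The clusters differed here too: one led by Igfbp3, Crabp1 and Prlr held 150 fibroblasts of WT_Ctrl and 10 of RP_UV, and another led by Igfbp3, Crabp1 and Slc26a7 held 10 and 195. No fibroblast cluster had 50 cells in both libraries. The 34 fibroblasts of WT_UV held 6 UMIs of Tnf and 8 of Tnfrsf1b, genes near absent from fibroblasts of the other libraries, and were not compared. Endothelial cells, 99 in WT_Ctrl and 351 in RP_UV, had Nfkbia at 1261 and 1808 CPM (1.43-fold, 1.28 to 1.61), and Tnfaip3 in RP_UV at 0.536 of WT_Ctrl (0.282 to 1.06).

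Neutrophils held the highest Nfkbia of any class in both UVB libraries, at 6217 CPM in WT_UV and 9497 in RP_UV. S100a8 and S100a9, neutrophil genes, summed to 159 CPM in macrophages of RP_UV, which is 0.418% of their level in neutrophils. Scaled by that ratio, neutrophil RNA would give 39.7 of the 611 CPM of Nfkbia (6.51%), 5.96% of Tnf, 8.12% of Tnfaip3 and 0.217% of Tnip3 in macrophages of RP_UV. By the same scaling it would give 14.3% of the Tnf, 23.8% of the Nfkbia and 29.7% of the Tnfaip3 of Langerhans cells of RP_UV. In keratinocytes of RP_UV it would give 17.5% of the Nfkbia, 15.1% of the Nfkbiz, 42% of the Tnfaip3 and 159% of the Tnf, more than the Tnf counted there. The scaling takes all S100a8 and S100a9 UMIs of a class as neutrophil RNA. Whether keratinocytes made part of theirs was not tested, so these shares may be too high.

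The share of macrophages with at least 1 UMI was compared after each cell was thinned to 2000 UMIs, leaving out 289, 59 and 178 shallower cells of the libraries WT_Ctrl, WT_UV and RP_UV. Tnf was found in 3.53% of WT_Ctrl macrophages (Wilson interval 2.73% to 4.55%), 13.6% of WT_UV (12.2% to 15.1%) and 10.6% of RP_UV (9.33% to 12.1%). Without thinning, the shares were 5.76%, 39.4% and 21.2% at median depths of 3809, 11171 and 4688 UMIs. In keratinocytes, thinned in the same way, 0.456% to 0.569% of cells had a UMI of Tnf, at unthinned median depths of 6026 to 9289 UMIs, and the macrophage shares lay above these. Keratinocytes had the lowest Tnf shares of the classes thinned, but they can make Tnf and are not a pure measure of background. Nfkbia was found in 27.3%, 40.4% and 50.8% of macrophages, Tnfaip3 in 4.79%, 13.8% and 9.13%, and Tnip3 in 2.96%, 4.12% and 1.33%. These orders are those of the CPM.

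**Figure D3:**
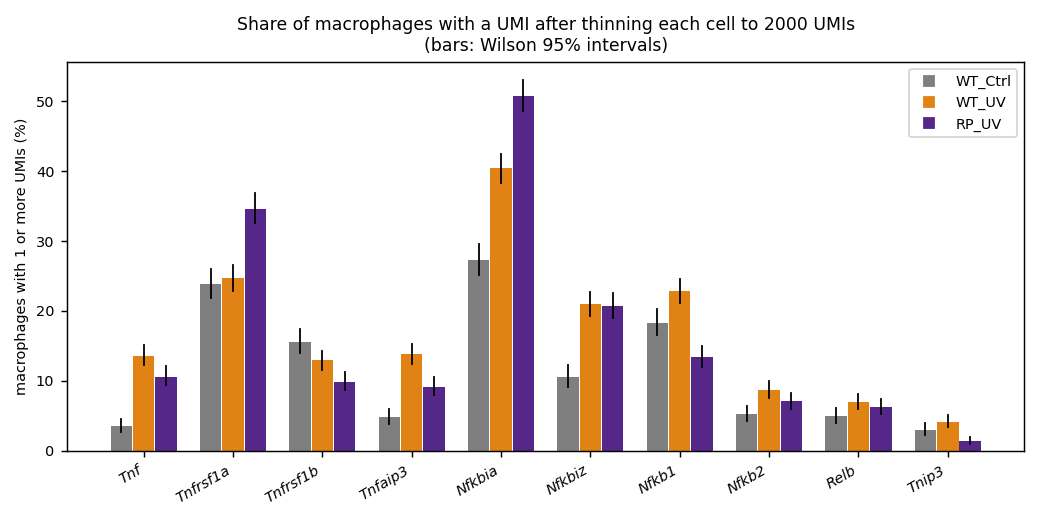
Share of macrophages (%) with 1 or more UMIs of each gene after thinning each cell to 2000 UMIs, with 1 bar per library and Wilson 95% intervals as lines. Nfkbia is at 27.3% in WT_Ctrl, 40.4% in WT_UV and 50.8% in RP_UV, whereas Tnfaip3 is highest in WT_UV at 13.8% and Tnip3 lowest in RP_UV at 1.33%.

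The macrophage class was not uniform, and different clusters made up most of it in each library. A cluster led by Ccl8, F13a1 and Hal held 34.2% of WT_Ctrl macrophages, another led by Ccl8, F13a1 and Pf4 held 26.9% of WT_UV, and clusters led by Ednrb, C1qc and Hal and by Ccl8, Pf4 and C1qc held 31.6% and 30.5% of RP_UV. The levels of the inhibitors differed widely between clusters of the same library. Over the 10 clusters with at least 50 cells in WT_UV, Nfkbia ran from 76.1 to 1587 CPM with a median of 316, Tnfaip3 from 6.04 to 419 with a median of 30.1, and Tnf from 8.67 to 245 with a median of 68.5. Tnfrsf1a spanned only 85.6 to 181 CPM and Relb 27.3 to 60.5 CPM.

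High levels in WT_UV were gathered in a pair of clusters. The first, of 268 cells led by Il1b, Thbs1, H2-Aa and Ccr2, had Nfkbia at 1587 CPM, Tnfaip3 at 419, Nfkbiz at 408 and Tnip3 at 119. The second, of 198 cells led by C3ar1, Ms4a7 and Pf4, had Tnf at 245 CPM, Nfkbia at 1286 and Tnfaip3 at 323. Together they were 20.8% of WT_UV macrophages and held 71.5% of the Tnfaip3 UMIs, 61.5% of Nfkbia, 53.8% of Nfkbiz, 52.2% of Tnip3 and 48.5% of Tnf, but 14.6% of Tnfrsf1a and 20.8% of Relb. WT_Ctrl had 4 cells in the first and 0 in the second. The other WT_UV macrophages had Nfkbia at 221 CPM and Tnfaip3 at 36.5 CPM, beside 223 and 38.1 CPM in all WT_Ctrl macrophages, whereas Tnf was at 51.4 CPM, beside 20.6. The pair was picked for its Nfkbia, which lowers the remainder by construction, and cells were clustered on all genes, so these values are a description.

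In 5 clusters with at least 50 cells in both WT_Ctrl and WT_UV, Tnf was higher in WT_UV in 5 of 5, by 1.49- to 3.10-fold with a median of 1.68. Its interval excluded 1 in the cluster led by C1qc, Mgl2 and C1qb (3.10-fold, 2.0 to 4.91) and in that led by Chil3, Plac8 and Lyz2 (1.62-fold, 1.10 to 2.46). Nfkbia was higher in 2 and lower in 3 of the 5, with a median fold of 0.938, Nfkbiz likewise with a median of 0.953, and Tnfaip3 likewise with a median of 0.767. Tnfrsf1b was lower in 4 of 5, with a median of 0.582. No macrophage cluster had at least 50 cells in both WT_Ctrl and RP_UV, so no fold within a cluster was drawn for that pair. The cluster led by Ccl8, F13a1 and Hal had 641 and 12 cells of them, and that led by Ednrb, C1qc and Hal 2 and 672. The macrophage folds of RP_UV over WT_Ctrl thus compare largely different clusters. For RP_UV over WT_UV, a single cluster, led by Ccl8, Pf4 and C1qc, had at least 50 cells in both. There, Nfkbia was 2.90-fold and Tnfaip3 2.20-fold higher in RP_UV. Tnf was not lower in RP_UV there (1.43-fold, 0.986 to 2.12), unlike in the class as a whole.

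**Figure D4:**
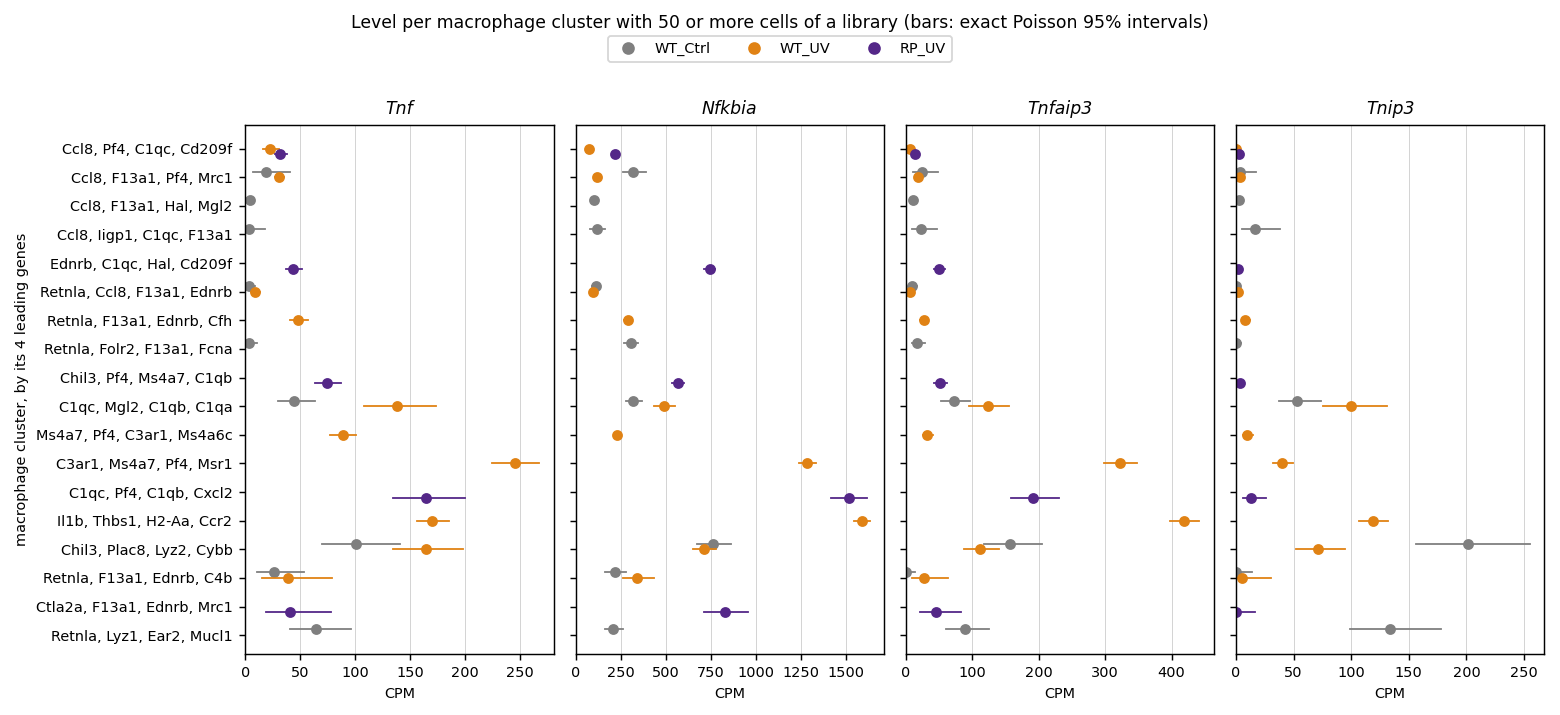
Level (CPM) of Tnf, Nfkbia, Tnfaip3 and Tnip3 in each macrophage cluster, named on the vertical axis by its 4 leading genes, for libraries with at least 50 cells in it, with exact Poisson 95% intervals as bars. The clusters led by Il1b and by C3ar1 in WT_UV and by C1qc, Pf4 and C1qb in RP_UV stand apart for Nfkbia, at 1587, 1286 and 1515 CPM. The leading genes of the RP_UV cluster also include Cxcl2 and S100a9, and the part of neutrophil RNA in its level was not tested.

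Other genes of the pathway were followed as lists in macrophages, by the same limits. Of 20 NF-kB target genes, 18 were measured, and 9 were higher by 2-fold in WT_UV over WT_Ctrl and 0 lower, with a median log2 difference of 1.10, beside 3.09% higher and 1.02% lower over all genes. For RP_UV over WT_Ctrl, 11 were higher and 1, Cd40, was lower (median 1.20), beside 3.96% and 4.03%. The 4 with the largest differences were Il1b (62.5 CPM in WT_Ctrl, 411 in WT_UV, 186 in RP_UV), Cxcl2 (97.7, 461 and 981), Tnfaip2 (13.2, 64.8 and 26.6) and Cxcl1 (4.83, 25.1 and 72.5). Neutrophils of RP_UV held Il1b at 29345 CPM, and Cxcl2 was a leading gene of the neutrophil clusters. The scaling for neutrophil RNA was not applied to these list genes, so its part in their macrophage levels was not tested. In RP_UV over WT_UV, 2 were higher, the neutrophil attractants Cxcl1 and Cxcl2, and 4 were lower, Tnfaip2, Cd83, Cd40 and Il1b, with a median of -0.05, beside 1.24% and 3.41%. Cd83, a surface marker of activated antigen-presenting cells, was at 71.3, 90.1 and 38.4 CPM.

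Of 17 inhibitors, 5 were higher in WT_UV over WT_Ctrl and 0 lower (median 0.44), beside 3.09% and 1.02% of all genes. In RP_UV over WT_Ctrl, Nfkbia was higher and Tnip3 lower (median 0.20), beside 3.96% and 4.03%. Beside Nfkbia and Tnfaip3 these were Nfkbid (34.9, 89.9 and 61.1 CPM), Zc3h12a (12.4, 32.1 and 16.7), a nuclease that degrades inflammatory transcripts, and Nfkbie (21.0, 44.7 and 27.7). In RP_UV over WT_UV, 1 was lower, Tnip3, and 0 higher (median -0.42), beside 3.41% and 1.24%, and Bcl3, a nuclear IkB protein, was at 32.1, 19.0 and 37.1 CPM. Of the 5 subunits, only Rel (c-Rel) passed 2-fold, at 55.7, 132 and 46.7 CPM, whereas Rela was at 51.3, 47.3 and 40.1 CPM. Rel was higher in WT_UV over WT_Ctrl, beside 3.09% of all genes, and lower in RP_UV over WT_UV, beside 3.41%. Of 20 adaptors and kinases, only Traf1 passed 2-fold, at 11.7, 26.7 and 12.5 CPM. It was higher in WT_UV over WT_Ctrl, beside 3.09% of all genes, and lower in RP_UV over WT_UV, beside 3.41%. Traf3 (12.1, 17.0 and 13.1), Tradd (16.7, 21.3 and 23.0), Rnf31 (17.1, 13.2 and 12), Birc3 (54.6, 59.8 and 34.9), Tab2 (131, 136 and 84.3) and Birc2 (29.8, 25.3 and 16.4) did not pass 2-fold. Of 7 ligands, receptors and their protease, 5 were measured and Tnf alone passed. It was higher in WT_UV and in RP_UV over WT_Ctrl, beside 3.09% and 3.96% of all genes. Ltbr was at 48.8, 57.7 and 53.5 CPM and Adam17, which sheds Tnf and its receptors, at 92.9, 106 and 70.4 CPM.

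Over the 26 class-by-library sums of at least 50 cells and 11097 genes, the genes most like Tnf were Was (Pearson r = 0.936), Sla (0.928), Fgd3 (0.926), Fam49b (0.921) and Stk17b (0.915). Those most like Nfkbia were Nfkbiz (0.857), Junb (0.844), Pglyrp1, Gsr and Txnrd1 (0.838 each). Among the 10 genes, Tnf was nearest to Nfkb1 (0.750) and Tnfaip3 (0.726) and opposite to Tnfrsf1a (-0.389). These points share libraries and depth, and the values only describe them.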

How the data were processed

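Raw counts (UMIs per gene and cell) were used as the authors deposited them, made with Cell Ranger 6.1.1 on mm10 per the labels and the submitters' processing notes. Cells with under 10% mitochondrial UMIs, more than 200 genes and fewer than 4000 genes (6000 in WT_UV) were kept, as in the study. Libraries were integrated with SCTransform in Seurat 5.3.0 and clusters were split with leidenalg 0.10.2 into 102 clusters, of which 83 were named from 20 marker panels. The limits of the naming rule were set after the clusters had been seen, and 510, 832 and 680 cells of WT_Ctrl, WT_UV and RP_UV stayed unnamed. Doublets were not removed. Scrublet (scanpy 1.11.5) called only 1.39%, 0.0191% and 0.0165% of cells, below the rate it was set to expect. These calls do not show that doublets were few, and some deep clusters with markers of different classes stayed unnamed. UMIs were summed per class and library and divided by all UMIs of that sum, giving CPM with exact Poisson intervals. Folds have exact binomial intervals, and no interval covers spread between animals. Since each group was 1 library, no test was made.

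The 10 genes and the gene lists were chosen with earlier results of these data known. All 10 genes were named in macrophages, dendritic cells, T cells and keratinocytes, the classes with 50 cells in each library, with the 4 genes of each pathway list that had the largest macrophage log2 fold and the 5 genes most correlated with Tnf and with Nfkbia. Folds within keratinocyte and fibroblast clusters were added after seeing the data. Fold calls and intervals were run on simulated Poisson counts, the model that the intervals assume. These counts hold no spread between animals or clusters, so the run checks the calculation only. TMM factors came from edgeR 4.0.16. Promoters, gene positions and strands are from RefSeq tables of GRCm38.p6, the patch level of mm10.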

Additional observations from a re-analysis of the deposited data

Results flagged for a closer look

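Differences of opposite sign in macrophages and keratinocytes, each beyond its own counting interval and at least 0.5 on the log2 scale, were found for Tnfaip3, Nfkbia, Nfkbiz and Nfkb2. Relb and Tnfaip3 in RP_UV over WT_Ctrl also had opposite signs beyond counting error, at 0.34 and -1.22 and at 0.47 and -1.38, under that size in macrophages. The difference between the classes was not tested, since each group had 1 library. In WT_UV over WT_Ctrl the log2 difference of Tnfaip3 was 1.42 in macrophages and -0.77 in keratinocytes, and that of Nfkbia was 1.05 and -0.83. In RP_UV over WT_Ctrl it was 1.45 and -1.47 for Nfkbia, 0.58 and -1.44 for Nfkbiz, and 0.50 and -1.17 for Nfkb2. These values kept their sign in both classes under the alternatives run for each class, with the macrophage value of Nfkbia in WT_UV over WT_Ctrl between 0.61 and 1.42. None of these alternatives held the cluster make-up of a class fixed. For WT_UV over WT_Ctrl within 5 macrophage clusters, Nfkbia and Tnfaip3 were each higher in 2 and lower in 3. Their median folds there were 0.938 and 0.767. In the keratinocyte cluster led by Krtdap, Krt77 and Krt10, Nfkbia was at 0.901 (0.807 to 1.01).

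Cells that could not be named entered no comparison. In them, RP_UV was above WT_Ctrl 2.12-fold for Tnfrsf1a and 2.07-fold for Nfkbia.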

How the results depend on the processing

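All log2 differences past 2-fold kept their sign in macrophages (56 values) and keratinocytes (49 values) under every alternative. Over all differences, 237 of 240 values kept it in macrophages and 143 of 147 in keratinocytes. In macrophages, an alternative chosen after seeing the data left out the 3 named clusters split from the integrated cluster that holds the Il1b-led cells. There the count of genes higher in RP_UV over WT_UV went from 0 to 1 (Nfkbia). In WT_UV over WT_Ctrl the log2 difference of Nfkbia went from 1.05 to 0.61. There Tnfaip3 in RP_UV over WT_UV went from -0.95 to -0.14. The count of genes lower in RP_UV over WT_UV went from 1 to 3 when WT_UV cells were also held to fewer than 4000 genes, and to 2 as a mean over cells or without the highest doublet scores, as Tnfaip3 passed 2-fold. The count lower in RP_UV over WT_Ctrl went from 1 to 0 as a mean over cells or thinned to 2000 UMIs. In keratinocytes, where these alternatives were added after seeing the data, the count lower in WT_UV over WT_Ctrl went from 0 to 2 with the limit of 4000 genes and to 1 as a mean over cells or thinned. That in RP_UV over WT_UV went from 2 to 1 without integration and to 0 with the limit of 4000 genes, as a mean over cells, thinned, or with a pseudocount of 10 CPM, which also took that in RP_UV over WT_Ctrl from 5 to 2. The causes were not tested.

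No paired analysis was possible because each group had 1 library. Run, depth and class composition move with the groups, and the intervals do not cover them.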
